A study of Homo sapiens with 9 samples.

Results

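Interferon-stimulated genes and the genes of MHC class I antigen presentation were followed in HepG2 cells in which TRIB3 was knocked down. The group was set by symbol, as a list of 39 genes looked up among the 24204 symbols of the deposited table. It holds 23 antiviral effectors, 5 transcription factors, 2 members of the RNA sensing pathway and 9 genes of antigen presentation. All 39 symbols were found, and 31 of them were expressed highly enough to be tested, which required 1 FPKM or more in 3 or more of the 9 libraries.

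HepG2 is a human liver cancer line, and TRIB3, a pseudokinase that cells induce under amino acid shortage, was depleted in the study to find the programs that depend on it. Cells kept in high-glucose DMEM with serum were infected for 48 h with lentivirus carrying a control short hairpin (shCtrl), shTRIB3-1 or shTRIB3-2, and were then held in puromycin for 48 h, so all 3 groups share infection and drug selection. Each group has 3 libraries, and nothing states that they came from separate cultures, so the p-values measure the spread between these libraries, which may be technical. The study's methods for RNA sequencing describe cells deprived of glutamine, while the sample labels mention no withdrawal, so the medium at harvest is uncertain.

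The target sequences of the 2 hairpins, as given in the study's list of reagents, are shown because every comparison below rests on them.
shTRIB3-1: tggatgacaacttagataccg
shTRIB3-2: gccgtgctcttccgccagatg
The shTRIB3-1 target was found without mismatch in 4 of the 4 TRIB3 transcripts of GENCODE v44, and the shTRIB3-2 target in 3 of the 4. TRIB3 itself was 67.9, 65.8 and 66.6 FPKM in the shCtrl libraries, 34.1, 32.7 and 34 FPKM with shTRIB3-1, and 20.6, 20.7 and 20.4 FPKM with shTRIB3-2. Its log2 fold change was -0.99 ± 0.03 (SE) with shTRIB3-1 and -1.70 ± 0.03 with shTRIB3-2 (limma, adjusted p = 5.3e-11 and 5.39e-13), so the labels match the target gene and shTRIB3-2 left less TRIB3 RNA.

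Interferons released by an infected cell bind receptors that act through JAK kinases, and the resulting complex, which holds STAT2 and IRF9, binds interferon-stimulated response elements (ISREs) near antiviral genes. Cytoplasmic sensors such as IFIH1 (MDA5) start this loop when they meet double-stranded RNA, and they signal through MAVS and IRF3. The same pathway raises MHC class I in most cells, where TAP1 and TAP2 pump peptides into the endoplasmic reticulum, TAPBP (tapasin) helps to load them, B2M pairs with the HLA heavy chains, and NLRC5 drives transcription of the class I genes.

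Promoters of the group were searched for the ISRE core, since it is the element that its members share by textbook knowledge. RefSeq promoters of GRCh38.p14, from 250 bases before to 50 bases after the start of transcription, were matched by symbol for 30 of the 39 genes. No entry was matched for HLA-E, IFIT2, IFITM2, IRF3, IRF7, MX2, NLRC5, OAS2 and OASL. The core GAAANNGAAA, on either strand, was present in 21 of the 30 promoters (70.0%) and in 996 of 27326 promoters of all genes (3.64%). It was present in 7 of 10 matched genes that were higher with both hairpins and in 5 of 9 that were lower with both, so genes of either direction carry it. The windows below give, for genes described in the results, the match nearest the start of transcription, written on the strand of the gene with the core in capitals. A core that lies on the opposite strand appears as its complement, TTTC on each side.
ISG15: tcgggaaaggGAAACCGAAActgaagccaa
ISG20: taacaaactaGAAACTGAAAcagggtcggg
B2M: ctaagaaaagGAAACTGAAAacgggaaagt
TAP1: ccgctttcgaTTTCGCTTTCccctaaatgg
IFIH1: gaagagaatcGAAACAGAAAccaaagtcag
IFITM1: acacttctgaGAAACTGAAAcgacagggga
IFITM3: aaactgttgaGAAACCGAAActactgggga
TAP2: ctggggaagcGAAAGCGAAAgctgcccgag
BST2: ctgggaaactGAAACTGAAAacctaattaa
ISG15, ISG20, B2M and TAP1 were higher with both hairpins, IFIH1, IFITM1, IFITM3 and TAP2 were lower with both, and BST2 differed in direction. Their positions are chr1:1013380-1013409 for ISG15, chr15:88638937-88638966 for ISG20, chr15:44711369-44711398 for B2M and chr6:32853813-32853842 (minus strand) for TAP1. Those of the other genes are chr2:162318686-162318715 (minus) for IFIH1, chr11:314024-314053 for IFITM1, chr11:320876-320905 (minus) for IFITM3, chr6:32838778-32838807 (minus) for TAP2 and chr19:17405735-17405764 (minus) for BST2. ISG20 and IFITM1 hold the same 10 letters, GAAACTGAAA, which also stand in B2M and BST2. The shorter GAS core TTCNNNGAA, the gamma-activated site, was in 7 of the 30 promoters (23.3%) and 7.88% of all promoters. A G-quadruplex motif (4 runs of at least 3 G, 1 to 7 bases apart, either strand) was in 9 of the 30 (30%) and in 24.1% of all promoters. These are matches of letters in one window, not mapped binding sites.

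Levels of the group in shCtrl cells ranged from IRF7, listed at 0, to IFITM3 (the plot of levels in all libraries). IFITM3 was highest at 245 ± 13.2 FPKM (SD, n = 3), followed by B2M at 144 ± 5.49, HLA-C at 101 ± 4.33 and BST2 at 71.2 ± 5.51 FPKM. Several genes often used as a readout of interferon were low or near 0. IFIT1 was 0.505, 0.480 and 0.480 FPKM in shCtrl cells, MX1 between 0.368 and 0.479, OASL between 0.105 and 0.222, and IFI44 between 0.0209 and 0.106. IFI44L and IRF7 reached at most 1 and 2 fragments in any library. Other interferon-stimulated genes were expressed, with shCtrl means of 33.6 FPKM for ISG15, 8.54 for MX2, 6.63 for OAS3 and 5.16 for OAS1. FPKM is scaled by gene length, so these levels can be compared between genes.

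**Figure D1:**
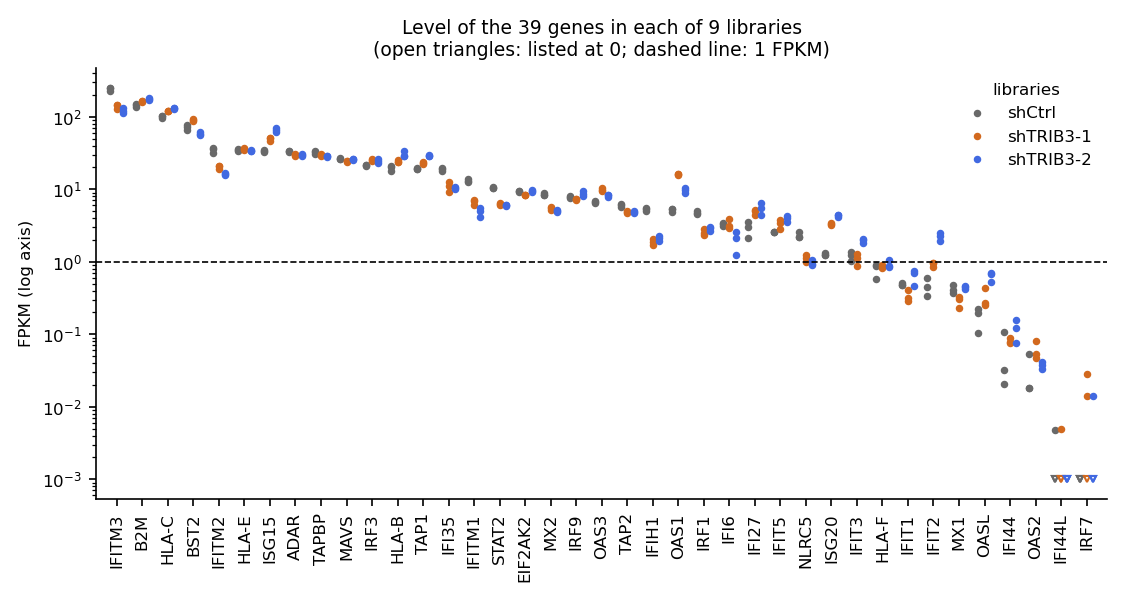
FPKM of each of the 39 genes (log axis) in the 3 shCtrl, 3 shTRIB3-1 and 3 shTRIB3-2 libraries, ordered by the shCtrl mean; open triangles mark libraries listed at 0 and the dashed line marks 1 FPKM. IFITM3, B2M and HLA-C are the most abundant, and IFIT1, MX1, OAS2, OASL, IFI44, IFI44L, IRF7 and HLA-F lie mostly or wholly below the line.

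The group did not move in 1 direction. With shTRIB3-1, 13 of the 31 tested genes were higher than in shCtrl and 14 were lower at an adjusted p under 0.05, where 32.9% of all 11265 tested genes were higher and 41.5% lower. With shTRIB3-2, 14 were higher and 14 lower, against 35.4% and 40.5% of all tested genes. Most tested genes were therefore called with either hairpin, and a count of called genes says little about this group on its own. The higher counts include IFIT2, which reached 1 FPKM in the shTRIB3-2 libraries only and so had to differ. The median log2 fold change of the 31 genes was -0.10 with shTRIB3-1 and -0.02 with shTRIB3-2, and that of all tested genes was -0.06 and -0.03.

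Changes above 2-fold were fewer. With shTRIB3-1, ISG20 and OAS1 were higher (2 of 31, background 5.39%) and IFIH1 was lower (1 of 31, background 6.1%). With shTRIB3-2, IFIT2 and ISG20 were higher (2 of 31, background 6.06%) and IFIH1, IFITM1, IFITM2, IFITM3 and NLRC5 were lower (5 of 31, background 6.27%). IFIT2, here and in the counts below, was tested through its shTRIB3-2 libraries alone. The hairpins share their control libraries, so the agreement between them is not independent. With that limit, 12 genes were higher with both hairpins (28.1% of all tested genes were), 12 were lower with both (34.3%), 5 were called with 1 hairpin alone (22% of all tested genes were), BST2 was called in opposite directions, and HLA-E was called with neither. The 5 were IFIT3, IFI6 and IRF9 with shTRIB3-2 and EIF2AK2 and MAVS with shTRIB3-1. The 12 higher genes were IFIT2, IFIT5, IFI27, ISG15, ISG20, OAS1, OAS3, IRF3, B2M, HLA-B, HLA-C and TAP1. The 12 lower genes were IFI35, IFIH1, MX2, STAT2, IRF1, ADAR, IFITM1, IFITM2, IFITM3, TAP2, TAPBP and NLRC5. In bulk RNA, fewer cells that express a gene and less of its RNA per cell cannot be told apart.

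**Figure D2:**
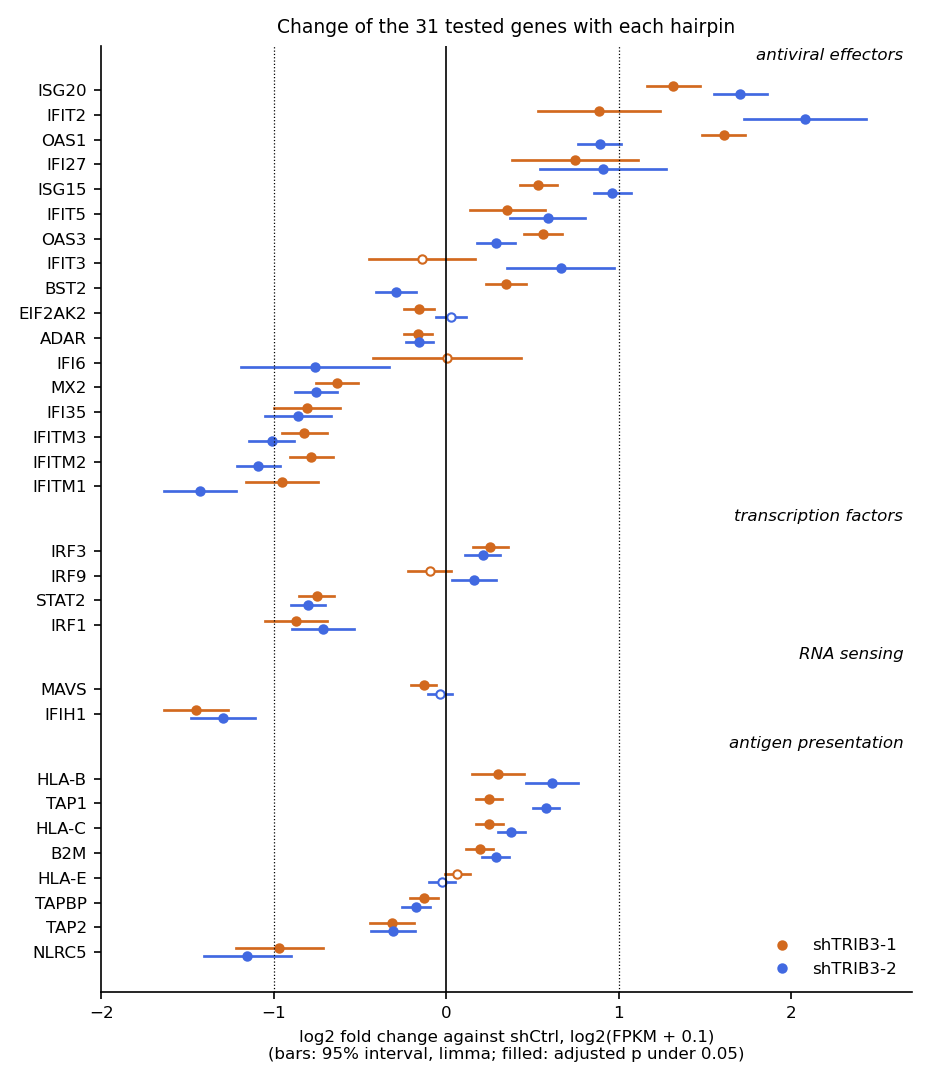
Log2 fold change of the 31 tested genes against shCtrl with shTRIB3-1 and shTRIB3-2, by role; bars are 95% intervals from limma, filled points have an adjusted p under 0.05, and dotted lines mark a 2-fold change. ISG20, IFIT2 and OAS1 lie farthest to the right and IFIH1, IFITM1 and NLRC5 farthest to the left.

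Among the antiviral effectors, 17 of 23 were tested, and 8 of these were called above and 7 below shCtrl with shTRIB3-1 (8 and 8 with shTRIB3-2), near the shares of all tested genes given above. The higher counts include IFIT2, which was tested through its shTRIB3-2 libraries alone. ISG20, an exonuclease that degrades single-stranded RNA, was 1.32, 1.25 and 1.23 FPKM in shCtrl cells, 3.18, 3.29 and 3.44 with shTRIB3-1 and 4.45, 4.15 and 4.46 with shTRIB3-2. The 3 groups did not overlap and shTRIB3-2 was the highest. Its log2 fold change was 1.32 ± 0.07 (adjusted p = 5.96e-09) with shTRIB3-1 and 1.70 ± 0.07 (adjusted p = 4.9e-10) with shTRIB3-2. OAS1, which makes the oligoadenylates that switch on RNase L, was 5.32, 5.34 and 4.82 FPKM in shCtrl cells, 15.7, 16.1 and 16.0 with shTRIB3-1, and 10.3, 8.98 and 9.71 with shTRIB3-2. Here shTRIB3-1, the hairpin that left more TRIB3 RNA, gave the higher values, again without overlap. Log2 fold changes of OAS1 were 1.61 ± 0.06 and 0.89 ± 0.06 (adjusted p = 1.76e-10 and 2.69e-08). OAS3, its neighbor on chromosome 12, changed in the same order, by 0.56 ± 0.05 and 0.29 ± 0.05 on the log2 scale, and OAS2, in the same cluster (chr12:112905856-113011723), was at or below 0.0798 FPKM in every library.

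ISG15, a ubiquitin-like modifier and one of the most widely induced interferon genes, was 32.7, 33.2 and 35.0 FPKM in shCtrl cells. It was 45.6, 50.4 and 50.2 FPKM with shTRIB3-1 and 64.8, 69.8 and 62.5 with shTRIB3-2. The groups were again separate, with a log2 fold change of 0.53 ± 0.05 for shTRIB3-1 and 0.96 ± 0.05 for shTRIB3-2 (adjusted p = 9.41e-07 and 3.57e-09). USP18, the protease that removes ISG15 from its targets, was lower with shTRIB3-1 (log2 fold change -0.31, adjusted p = 0.00675) and was not called with shTRIB3-2 (-0.06, adjusted p = 0.576).

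The IFIT genes encode proteins that bind foreign RNA, and 4 of them lie side by side on chromosome 10 (chr10:89283694-89421605). IFIT2 was 0.445, 0.341 and 0.592 FPKM in shCtrl cells, 0.956, 0.851 and 0.949 with shTRIB3-1, and 1.96, 2.27 and 2.49 with shTRIB3-2. The groups did not overlap, but IFIT2 reached 1 FPKM in the shTRIB3-2 libraries only, so it was tested because it was high there and had to differ. Its fitted log2 fold changes were 0.89 ± 0.16 and 2.08 ± 0.16, from 42 to 72 fragments per shCtrl library and 227 to 296 per shTRIB3-2 library. IFIT5 was called higher with both hairpins (0.35 ± 0.10 and 0.59 ± 0.10), and IFIT3 with shTRIB3-2 only (-0.14 ± 0.14 and 0.66 ± 0.14). IFIT1, the member used most often as a readout, was 0.402, 0.314 and 0.284 FPKM with shTRIB3-1 and 0.465, 0.698 and 0.753 with shTRIB3-2. The shTRIB3-1 libraries lay below the shCtrl range and the shTRIB3-2 libraries spread across it. In a fit without the filter neither change in IFIT1 was called (adjusted p = 0.0995 and 0.272). IFI27, a small mitochondrial protein, was higher with both hairpins by 0.75 ± 0.17 and 0.91 ± 0.17 on the log2 scale, and IFI6, a related protein, was lower with shTRIB3-2 only (-0.76 ± 0.20, adjusted p = 0.00376).

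The IFITM genes, whose products block fusion of virus and cell membranes, fell together. IFITM3 was 253, 229 and 252 FPKM in shCtrl cells, 143, 144 and 129 with shTRIB3-1 and 119, 131 and 114 with shTRIB3-2. IFITM1 was 14.1, 12.5 and 12.9 FPKM in shCtrl cells, 7.22, 6.07 and 6.97 with shTRIB3-1 and 4.11, 4.95 and 5.46 with shTRIB3-2. IFITM2 was 31.9, 35.6 and 36.8 FPKM in shCtrl cells, 20.8, 18.9 and 20.9 with shTRIB3-1 and 15.9, 16.9 and 16.0 with shTRIB3-2. In all 3 genes every knockdown library was below every shCtrl library, and for IFITM1 and IFITM2 the hairpins were also separate. The log2 fold changes with shTRIB3-2 were -1.43 ± 0.10 for IFITM1, -1.09 ± 0.06 for IFITM2 and -1.01 ± 0.06 for IFITM3, and with shTRIB3-1 they were -0.95, -0.78 and -0.82. The genes are close copies within chr11:303655-329475. In GENCODE v44, 6.81% of the 100-base stretches of IFITM2 transcripts and 8.26% of those of IFITM3 also occur in transcripts of other genes, IFITM1 the most often, and 17.9% of those of IFITM1 do, most often in an unnamed gene that overlaps it. How the authors' counting split such reads is not given in the sources used here.

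Other effectors were lower by smaller amounts. MX2, a GTPase that blocks nuclear entry of viral genomes, was lower by log2 fold changes of -0.63 ± 0.06 and -0.76 ± 0.06. IFI35 was lower by -0.81 ± 0.09 and -0.86 ± 0.09. ADAR, which edits adenosine to inosine in double-stranded RNA, was lower by -0.16 ± 0.04 with both hairpins. EIF2AK2 (PKR), the kinase that halts translation on binding double-stranded RNA, was lower with shTRIB3-1 (-0.16 ± 0.04, adjusted p = 0.00336) and not called with shTRIB3-2 (0.03 ± 0.04, adjusted p = 0.572). When libraries were centered on their medians, the calls of ADAR and EIF2AK2 with shTRIB3-1 were lost (adjusted p = 0.0558 and 0.07).

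BST2 (tetherin), which holds budding virus on the cell surface, moved in opposite directions. It was 65.6, 71.3 and 76.6 FPKM in shCtrl cells, 90, 94.4 and 86.9 with shTRIB3-1 and 57.0, 61.1 and 56.2 with shTRIB3-2. All shTRIB3-1 libraries lay above and all shTRIB3-2 libraries below the control range. BST2 had log2 fold changes of 0.35 ± 0.05 (adjusted p = 8.96e-05) and -0.29 ± 0.05 (adjusted p = 0.000355), a pattern called in 1.76% of all tested genes.

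**Figure D3:**
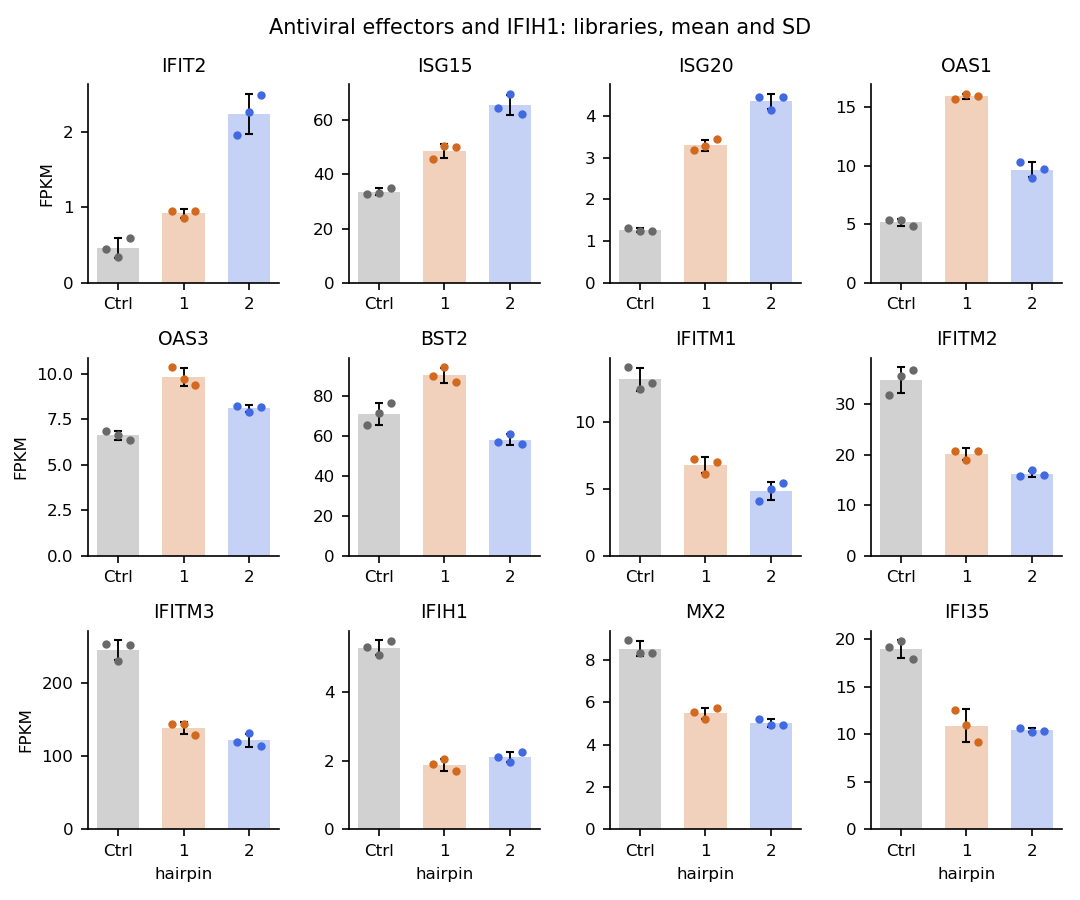
FPKM of 11 antiviral effectors and IFIH1 in shCtrl (Ctrl), shTRIB3-1 (1) and shTRIB3-2 (2) cells; points are libraries, bars are means and error bars are SD (n = 3). IFIT2, ISG15, ISG20, OAS1 and OAS3 were higher with both hairpins, the IFITM genes, IFIH1, MX2 and IFI35 were lower with both, and BST2 was higher with shTRIB3-1 and lower with shTRIB3-2.

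The RNA sensor IFIH1 was 5.31, 5.08 and 5.50 FPKM in shCtrl cells, 1.89, 2.05 and 1.69 with shTRIB3-1 and 2.11, 1.95 and 2.26 with shTRIB3-2. Knockdown values were at 35.4% and 39.7% of the control mean, without overlap with it, and the hairpins overlapped each other. IFIH1 had log2 fold changes of -1.45 ± 0.09 (adjusted p = 1.42e-08) and -1.29 ± 0.09 (adjusted p = 3.41e-08). MAVS, the adaptor to which IFIH1 signals, differed little, at -0.13 ± 0.03 with shTRIB3-1 (adjusted p = 0.00307, lost after median centering at 0.199) and -0.04 ± 0.03 with shTRIB3-2 (adjusted p = 0.328).

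Of the transcription factors, IRF3, which is switched on by MAVS, was slightly higher (0.26 ± 0.05 and 0.21 ± 0.05 on the log2 scale). STAT2 was 10.7, 10.3 and 10.4 FPKM in shCtrl cells, 6.21, 5.98 and 6.39 with shTRIB3-1, and 6.09, 5.84 and 6.0 with shTRIB3-2. Both knockdowns were below the control without overlap, with log2 fold changes of -0.75 ± 0.05 and -0.80 ± 0.05. IRF1, which acts downstream of interferon gamma, was lower by -0.87 ± 0.08 and -0.71 ± 0.08, and 22.9% of its exon bases overlap genes on the other strand. IRF9, the DNA-binding partner of STAT2, was not called with shTRIB3-1 (-0.10 ± 0.06) and was slightly higher with shTRIB3-2 (0.16 ± 0.06, adjusted p = 0.0226), a call that leaving out shCtrl replicate 3 or shTRIB3-2 replicate 1 ended (adjusted p = 0.0801 and 0.111). The RNA of STAT2 was lower in the same libraries in which ISG15, ISG20 and OAS1 were higher. In those libraries the IFITM genes, IFIH1, MX2, IFI35 and ADAR were lower as well. A link between STAT2 and these genes was not tested.

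Antigen presentation genes moved in both directions. Of the 8 tested genes, 4 were higher and 3 lower with each hairpin (all tested genes: 32.9% and 41.5% with shTRIB3-1, 35.4% and 40.5% with shTRIB3-2). B2M was 137, 148 and 146 FPKM in shCtrl cells, 160, 166 and 167 with shTRIB3-1 and 170, 181 and 174 with shTRIB3-2. HLA-B was 17.7, 20.3 and 21.1 FPKM in shCtrl cells, 23.5, 25 and 24.1 with shTRIB3-1 and 28.8, 33.2 and 28.5 with shTRIB3-2. For both genes the 3 groups were separate and shTRIB3-2 was highest. The log2 fold changes of B2M were 0.20 ± 0.04 and 0.29 ± 0.04 (adjusted p = 0.00035 and 1.26e-05), and those of HLA-B were 0.30 ± 0.07 and 0.61 ± 0.07 (adjusted p = 0.00179 and 4.68e-06). HLA-C was higher by 0.25 ± 0.04 and 0.38 ± 0.04, whereas HLA-E, the ligand of the NKG2A receptor, was called with neither hairpin (95% interval of the difference -0.01 to 0.14 and -0.10 to 0.05). Median centering and leaving out shTRIB3-1 replicate 2 each gave HLA-E a call with shTRIB3-1 (0.14 and 0.09, adjusted p = 0.00331 and 0.0493). HLA heavy chain genes are highly alike and polymorphic, and in GENCODE v44 the pseudogene DHFRP2 and a microRNA gene overlap 32.8% of the exon bases of HLA-B on the same strand, so the split of reads among them is uncertain.

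The peptide transporter changed unequally. TAP1 was 19.3, 18.9 and 19.9 FPKM in shCtrl cells, 22.3, 23.7 and 23.0 with shTRIB3-1 and 28.7, 29.5 and 28.6 with shTRIB3-2. Its partner TAP2 was 5.65, 6.05 and 6.36 FPKM in shCtrl cells, 4.93, 4.75 and 4.78 with shTRIB3-1 and 5.04, 4.68 and 4.79 with shTRIB3-2. TAP1 was above and TAP2 below the control range in all 6 knockdown libraries. The log2 fold changes were 0.25 ± 0.04 and 0.58 ± 0.04 for TAP1 (adjusted p = 4.3e-05 and 1.8e-08) and -0.31 ± 0.06 with either hairpin for TAP2 (adjusted p = 0.000372 and 0.000397). TAPBP was lower by -0.13 ± 0.04 and -0.18 ± 0.04, and its call with shTRIB3-1 was lost after median centering (adjusted p = 0.298).

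NLRC5 was 2.16, 2.18 and 2.54 FPKM in shCtrl cells, 1.14, 0.985 and 1.25 with shTRIB3-1 and 0.945, 0.915 and 1.06 with shTRIB3-2. The knockdown libraries were all below the control libraries and the hairpins overlapped, with 265 to 362 fragments per knockdown library and 644 to 758 per control library. NLRC5 changed by -0.97 ± 0.12 with shTRIB3-1 and by -1.15 ± 0.12 with shTRIB3-2 on the log2 scale (adjusted p = 9.03e-06 and 1.69e-06). The RNA of this activator of class I genes was lower in the same libraries in which B2M, HLA-B, HLA-C and TAP1 were higher. In those libraries TAP2 and TAPBP were lower as well, and HLA-E was called with neither hairpin. A link between NLRC5 and these genes was not tested.

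**Figure D4:**
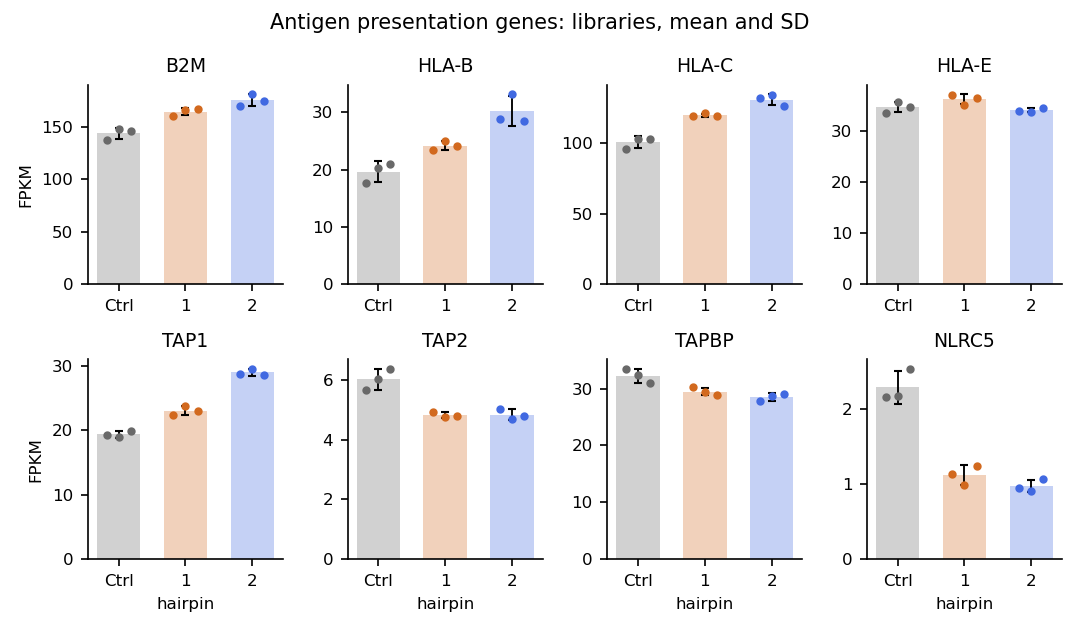
FPKM of the 8 tested antigen presentation genes in shCtrl (Ctrl), shTRIB3-1 (1) and shTRIB3-2 (2) cells; points are libraries, bars are means and error bars are SD (n = 3). B2M, HLA-B, HLA-C and TAP1 were higher with both hairpins, TAP2, TAPBP and NLRC5 were lower, and HLA-E was called with neither.

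The hairpins were then compared directly. Of the 31 genes, 10 were higher with shTRIB3-2 than with shTRIB3-1 and 8 were lower, where 25.1% and 20.7% of all tested genes were. IFIT2 alone exceeded a 2-fold difference, with shTRIB3-2 higher (1 of 31, background 0.284%) and none lower (background 1.79%). The difference was 1.19 ± 0.16 on the log2 scale (adjusted p = 9.92e-05), with the limit given above on how IFIT2 came to be tested. IFIT3 was also higher with shTRIB3-2 (0.81 ± 0.14), as were ISG15 (0.43 ± 0.05), ISG20 (0.39 ± 0.07), TAP1 (0.33 ± 0.04) and HLA-B (0.31 ± 0.07). OAS1 (-0.72 ± 0.06), OAS3 (-0.27 ± 0.05), BST2 (-0.64 ± 0.05), IFI6 (-0.77 ± 0.20) and IFITM1 (-0.48 ± 0.10) were lower with shTRIB3-2. The larger fall of TRIB3 with shTRIB3-2 went with larger rises of ISG15, ISG20 and TAP1 and with smaller rises of OAS1 and OAS3, and 2 hairpins do not make a dose series. The differences of IFITM3, MAVS and HLA-E between hairpins were called (adjusted p = 0.0204, 0.0327 and 0.0472), but each was lost in several fits that left out 1 library.

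**Figure D5:**
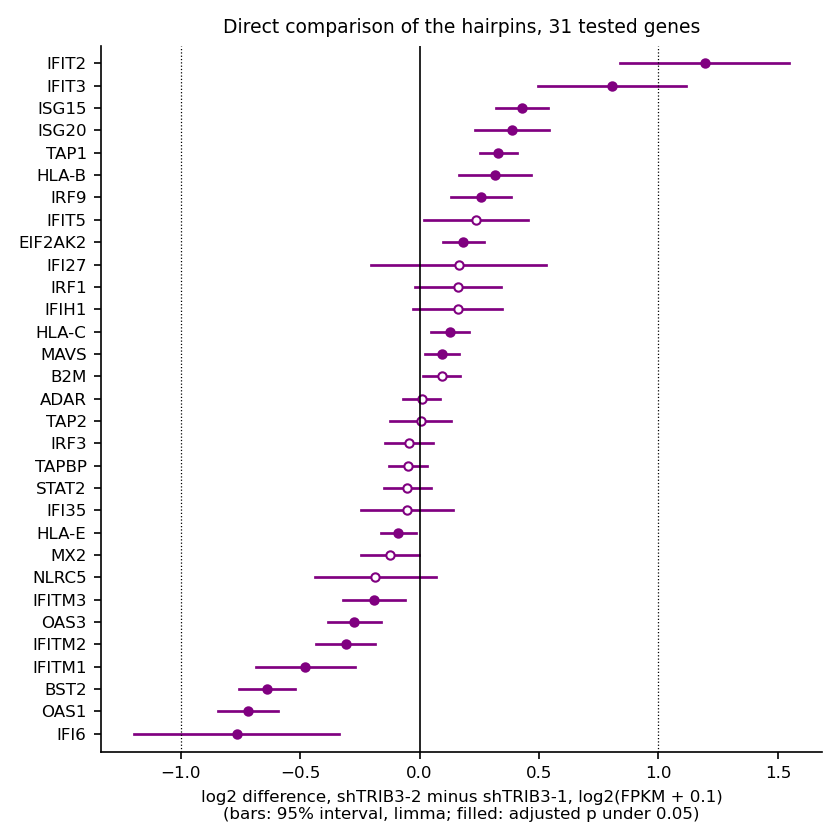
Log2 difference between shTRIB3-2 and shTRIB3-1 for the 31 tested genes, ordered by size; bars are 95% intervals from limma, filled points have an adjusted p under 0.05, and dotted lines mark a 2-fold difference. IFIT2, IFIT3 and ISG15 lie at the top and IFI6, OAS1 and BST2 at the bottom.

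Some exons are shared with other annotated genes. In GENCODE v44, genes on the same strand cover 12.1% of the exon bases of IFIT2, 23.1% of IFI6, 23.9% of IRF9 and 19.5% of TAP2, and genes on the opposite strand cover 19.4% of IRF3, 16.3% of IFITM3, 14.2% of TAP1 and 21.0% of TAPBP. Reads from the opposite-strand stretches can belong to either gene where counting did not use the strand. Those from the same-strand stretches can belong to either gene whatever the strand setting.

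The 8 untested genes were at or below 1.07 FPKM in every library. In a fit without the filter, OASL was higher with shTRIB3-2 (1.44 ± 0.24, adjusted p = 0.001), from 17 to 36 fragments per shCtrl library and 84 to 112 per shTRIB3-2 library, and it was not called with shTRIB3-1 (0.61 ± 0.24, adjusted p = 0.0704). MX1 ranged from 0.230 to 0.479 FPKM and HLA-F from 0.571 to 1.07 FPKM, and neither was called in either comparison. IFI44, IFI44L, OAS2 and IRF7 had at most 17 fragments in any library, and none was called with either hairpin in that fit.

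Lists of other genes of the pathway place the group, with counts at an adjusted p under 0.05. Of 10 interferon genes, IFNL1 was the only one among the table's symbols, with 0 fragments in the shCtrl and shTRIB3-1 libraries and 1 in each shTRIB3-2 library. Of 14 tested receptors, kinases and regulators, 4 were above and 6 below shCtrl with either hairpin, and none passed 2-fold. Among them, named after their values were seen, JAK1 was higher (log2 fold change 0.58 and 0.56) and TYK2 lower (-0.73 and -0.47), and IFNAR2 was higher (0.28 and 0.60) while IFNAR1 was lower (-0.24 and -0.32), so the subunits and kinases of the type I receptor did not change together. Of 13 tested sensing genes, 6 were called above and 7 below shCtrl with shTRIB3-1, and 5 above and 7 below with shTRIB3-2. The higher counts include STING1, which passed the filter through knockdown libraries alone and so had to be higher. Beside the receptor and sensing counts, 32.9% of all tested genes were higher and 41.5% lower with shTRIB3-1, and 35.4% and 40.5% with shTRIB3-2. Past 2-fold these shares were 5.39% and 6.1%, and 6.06% and 6.27%. RNASEH2A, the catalytic subunit of RNase H2, was lower by -1.32 and -2.17, and RNASEH2C, another subunit, by -0.69 and -1.01. Other sensing genes, named after their values were seen, were higher: DDX58 (RIG-I) by 0.46 and 0.50, and TICAM1 by 1.00 and 0.89.

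Further interferon-stimulated genes were called lower more often than higher. Of 29 tested, 7 were called above and 17 below shCtrl with shTRIB3-1, and 8 above and 18 below with shTRIB3-2, with median log2 fold changes of -0.22 and -0.21. These counts and medians include TRIM38 and NMI, which passed the filter through the shCtrl libraries alone and so had to be lower. Over all tested genes, 32.9% were higher and 41.5% lower with shTRIB3-1, and 35.4% and 40.5% with shTRIB3-2, with medians of -0.06 and -0.03. Of the genes past 2-fold, those with the largest mean change over both hairpins were LY6E (-1.49 and -1.90), PSMB9 (-1.83 and -1.41, also on the list of antigen processing), NMI (-1.46 and -1.5, tested through its shCtrl libraries alone, so it had to differ), TNFSF10 (TRAIL, -1.67 and -1.24), CNP (-1.15 and -1.12) and APOL6 (-1.03 and -1.17). Of 23 further tested genes of antigen processing, 6 were called above and 16 below shCtrl with shTRIB3-1, and 6 above and 15 below with shTRIB3-2, with medians of -0.33 and -0.25, beside the same shares and medians of all tested genes. MICA and MICB, stress ligands of the NKG2D receptor, were higher (1.42 and 1.33, and 1.29 and 0.97). HLA-G rose from 0.0594 FPKM to 3.19 and 0.394 FPKM (log2 fold change 4.36 and 1.56), but it passed the filter through the shTRIB3-1 libraries and so had to differ. The immunoproteasome subunits PSMB8 and PSMB9 were lower (-0.95 and -0.79, and -1.83 and -1.41), although they lie with TAP1 and TAP2 within chr6:32821833-32859851, where TAP1 was higher. PSMB8 and USP18 were named after their values were seen.

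Cell identity was checked with marker lists. All 12 hepatocyte markers were expressed, with ALB at 5213 FPKM in shCtrl cells, and their summed level was 13185 to 14101 FPKM with shCtrl, 12999 to 13531 with shTRIB3-1 and 16460 to 17546 with shTRIB3-2. Of 12 leukocyte markers, 11 were listed. The defining genes PTPRC, CD3E, NKG7 and TYROBP were at 0 in all shCtrl libraries and averaged at most 0.0324 FPKM in either knockdown, while CD68, CD14, CD8A, CD4 and ITGAM were detected. The summed level of that list was 1058 to 1179 FPKM with shCtrl, 535 to 562 with shTRIB3-1 and 615 to 654 with shTRIB3-2, most of it LYZ. The part of this shift in the results was not tested. Fibroblast and endothelial markers summed to at most 0.466 FPKM in any library.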

How the data were processed

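The authors deposited FPKM values (fragments scaled by gene length and by the mapped fragments of the library), 1 column per library. Per the labels, libraries were made from total RNA with a VAHTS kit, and the submitters' processing notes name GRCh38, HTSeq and R 3.2.0; the study's methods name STAR and a strand-specific NEBNext kit. The annotation release and the strand setting are not given in the sources used here. FPKM does not correct for composition, so a rise of abundant genes lowers all others. Whole fragments were worked out from the FPKM steps, where a gene length was accepted only if every value came within 0.002 of a whole number. A length was found for 21846 of 21846 genes above 0 in at least 2 libraries, with 34206726 to 36311029 fragments per library. On made data with known fragments, 98.79% of solved genes had every number exact. Differences between replicates exceeded sampling noise (chi-square per degree of freedom 3.13 to 7.54).

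Genes with an FPKM of at least 1 in at least 3 of 9 libraries (11265 of 24204) were tested on log2(FPKM + 0.1) with limma 3.58.1 in R 4.3.3, with 1 mean per group over all 9 libraries and a mean-variance trend. Fold changes on this scale understate those of low genes. P-values are two-sided, adjusted by Benjamini-Hochberg over all tested genes, with calls at 0.05 and, separately, at a log2 fold change above 1 in size. On simulated data for these 3 groups (10891 genes), 200 of 200 changed genes were recovered. The changed genes were well above the filter and were shifted by more than 2-fold in shTRIB3-1 only, with a set spread. This check therefore says nothing about smaller changes or low genes. The members and gene lists were chosen with earlier results of these data known. Per-library values were given for members that both hairpins moved alike past the test and that were above 2-fold with at least 1, for members of opposite direction, for members above 2-fold between the hairpins, and for IFIT1, ISG15, B2M, HLA-B, TAP1 and NLRC5; STAT2, TAP2 and OAS3 were added after their values were seen. From the lists, up to 6 genes past both thresholds were named, and any other is an addition. Alternatives were a pseudocount of 1, no filter, a filter at 5 FPKM, median centering, TPM, a replicate block, no trend, voom on the recovered fragments, and leaving out each library.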

Additional observations from a re-analysis of the deposited data

Results flagged for a closer look

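IFIT2 and BST2 stood out because the effect of the hairpins differed in a direct test. IFIT2 was higher with shTRIB3-2 than with shTRIB3-1 by 1.19 on the log2 scale (limma, adjusted p = 9.92e-05), but it reached 1 FPKM in the shTRIB3-2 libraries only, so it was tested because it was high there and had to differ. BST2 differed by -0.64 (shTRIB3-2 minus shTRIB3-1), and it was above every shCtrl library in 3 of 3 shTRIB3-1 libraries and below every one in 3 of 3 shTRIB3-2 libraries. The cause of either difference was not tested.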

How the results depend on the processing

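Over 8 alternative settings and 9 fits that left out 1 library each, 1191 of 1225 values called at an adjusted p under 0.05 kept their direction and call, 34 lost the call, and none turned. The counts of members higher or lower in each comparison stayed within 1.5 times. The count past 2-fold between hairpins (1) was 0 with a pseudocount of 1 and 0 with the filter at 5 FPKM, which removes IFIT2; that for shTRIB3-2 (7) was 4 with that filter, which also removes ISG20 and NLRC5; and that for shTRIB3-1 (3) was 5 with TPM and 5 with voom on fragments. Values near 0 that were not called turned sign: IFI6 with shTRIB3-1 (-0.0495 with TPM, -0.1214 to 0.0938 leaving out 1 library), MAVS and HLA-E with shTRIB3-2 (0.0151 and 0.0274 with median centering), and, between hairpins, ADAR (-0.0203 with centering, -0.0164 to 0.0307 leaving out 1 library), TAP2 (-0.0241 with centering, -0.0252 to 0.0269 leaving out 1 library) and IFI35 (-0.1735 to 0.0557 leaving out 1 library). Same-numbered libraries deviated together weakly at most (correlations -0.07 to 0.09 over 9 pairs), which does not settle whether the numbers pair them. With the replicate block, B2M between hairpins was called (0.09, adjusted p = 0.0157) and HLA-E was not (-0.09, adjusted p = 0.06), and no other call changed.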
